A study of Mus musculus with 12 samples.

Results

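The genes described are 8 members of the gap junction and pannexin families of the mouse, read from the gene count table of a limiting-cell RNA-seq experiment on the dentate gyrus: Gja1, Gjb2, Gjb6, Gjc1, Gjc3, Gjd2, Panx1 and Panx2. They were taken by symbol, as 8 of the 50600 gene rows in the table, and all 8 were found. They had been chosen by their levels and differences in these same counts, that is, with the values of the 12 libraries known, so their differences between cell types are given as a description, with fold changes and standard errors (SE). No p-value is printed for them, and whether a fit placed them past the adjusted threshold of 0.05 is a part of that description and not evidence for the difference. The table holds 12 libraries, each from 50 cells sorted from adult Nestin-GFP mice of 6 to 9 weeks, with 4 libraries of each cell type. All sorted cells were live and negative for CD31, CD45, O1 and O4. Cells positive for both GFP and GLAST were called stem cells, cells positive for GFP alone progenitors, and cells positive for GLAST alone astrocytes. GFP is driven by Nestin regulatory sequence, so it reports activity of that transgene, and GLAST is the protein product of Slc1a3.

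Connexins are membrane proteins that assemble into a hemichannel, and hemichannels of neighbouring cells dock to form a gap junction through which ions and small metabolites pass. Astrocytes are coupled into a network mainly by the products of Gja1 and Gjb6, and the radial glia-like stem cells of the dentate gyrus share many astrocyte genes, these connexins among them. Pannexins have a similar fold but form mostly unpaired channels, of which the Panx1 channel is known for releasing ATP.

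Total counts per library were 5357232 to 6253680 for astrocytes, 9041498 to 12535028 for progenitors and 5031166 to 10435711 for stem cells. Levels are given in CPM, the counts of a gene per 1000000 counts of the library after scaling by TMM, a factor that centres the bulk of genes between libraries. A count of 0 allows up to 3 counts, which is 0.206 to 0.639 CPM depending on the library and covers counting error only. The astrocyte and progenitor columns carry no replicate number and are called library a to d here, as names only, while the stem cell columns are numbered 1 to 4. The study describes libraries of a cell type as biological replicates, but the labels name no animals, so libraries could not be matched across cell types and each p-value given measures the spread between these libraries.

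The sorted populations were set beside marker lists before the members were read. The 8 astrocyte markers, which include Aldoc, Aqp4 and Slc1a3, were detected in every library. Their summed level was 15530 to 21068 CPM in astrocytes, 7671 to 9658 CPM in progenitors and 22734 to 31512 CPM in stem cells. The 6 immature neuron markers, Dcx and Neurod1 among them, summed to 801 to 1534 CPM in progenitors, 5.11 to 299 CPM in astrocytes, where Eomes and Igfbpl1 were at 0 in every library, and 9.95 to 39.6 CPM in stem cells. The 6 stem cell markers summed to 621 to 867 CPM in stem cells. The sum was 288 to 566 CPM in astrocytes and 291 to 596 CPM in progenitors. Hopx alone was at 493 to 598 CPM in stem cells. By edgeR 2 of 4 tested, Hopx and Prom1, were higher in stem cells than in progenitors, beside 3.66% of genes. Sox2 and Vim were not past the threshold, with progenitors over stem cells at -0.78 (SE 0.49) and 0.46 (SE 0.59). Between astrocytes and stem cells 0 of 4 were past it. Lpar1 had 0 counts in every stem cell library and 1 to 281 in progenitors. Nes had 0, 4, 0 and 0 counts in stem cell libraries 1 to 4. Progenitor libraries a to d had 291, 1, 62 and 163. Mature neuron markers reached 636 to 5252 CPM in astrocytes, above the 175 to 256 CPM in progenitors and 238 to 456 CPM in stem cells. Camk2a alone was at 460 to 4052 CPM in astrocytes. By edgeR 2 of 6 tested were higher in astrocytes than in progenitors, beside 2.45% of genes. Rbfox3 and Gad1 went the other way, with log2 fold changes of -0.41 (SE 1.12) and -1.38 (SE 1.74), not past the threshold. Oligodendrocyte markers summed to 337 to 3205 CPM in astrocytes, 249 to 417 CPM in progenitors and 475 to 821 CPM in stem cells. Microglial markers did not exceed 248 CPM in any library, and endothelial markers did not exceed 97.9 CPM. In libraries of pooled cells, fewer cells of a type and less RNA per cell cannot be told apart.

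Promoters are shown for the members that were high together and for a pair of neighbouring genes that were not. Gja1 and Gjb6 were highest in stem cells, Gjc3 and Panx1 were high in progenitors, and Gjb2 lies next to Gjb6 on chromosome 14. Of the 8 members, 6 matched the RefSeq promoter table on build GRCm38.p6, which gives 250 bases before and 50 after each gene's start. Each line reads 5′ to 3′ on the gene's own strand. Capitals mark matches, on either strand, to the GC box GGGCGG and to the AP-1 motif TGANTCA.
Gja1, chr10:56377050-56377349, plus strand: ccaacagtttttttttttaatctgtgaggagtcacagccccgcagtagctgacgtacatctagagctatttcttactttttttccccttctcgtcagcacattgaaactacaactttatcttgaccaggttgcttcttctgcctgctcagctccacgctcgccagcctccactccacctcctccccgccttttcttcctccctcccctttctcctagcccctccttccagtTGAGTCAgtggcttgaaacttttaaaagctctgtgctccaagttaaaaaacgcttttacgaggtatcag
Gjb6, chr14:57133562-57133861, minus strand: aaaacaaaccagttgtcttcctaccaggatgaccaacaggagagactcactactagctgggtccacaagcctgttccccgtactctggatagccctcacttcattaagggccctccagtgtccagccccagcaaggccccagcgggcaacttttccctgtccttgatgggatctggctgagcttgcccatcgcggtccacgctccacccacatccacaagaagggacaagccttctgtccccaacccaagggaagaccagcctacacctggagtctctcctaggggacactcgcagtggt
Gjb2, chr14:57104653-57104952, minus strand: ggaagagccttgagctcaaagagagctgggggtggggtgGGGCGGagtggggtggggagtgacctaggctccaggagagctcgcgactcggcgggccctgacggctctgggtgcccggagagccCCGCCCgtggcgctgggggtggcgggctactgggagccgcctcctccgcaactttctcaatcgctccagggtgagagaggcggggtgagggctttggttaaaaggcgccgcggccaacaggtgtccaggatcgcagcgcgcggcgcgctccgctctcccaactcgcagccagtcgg
Gjc3, chr5:137963049-137963348, minus strand: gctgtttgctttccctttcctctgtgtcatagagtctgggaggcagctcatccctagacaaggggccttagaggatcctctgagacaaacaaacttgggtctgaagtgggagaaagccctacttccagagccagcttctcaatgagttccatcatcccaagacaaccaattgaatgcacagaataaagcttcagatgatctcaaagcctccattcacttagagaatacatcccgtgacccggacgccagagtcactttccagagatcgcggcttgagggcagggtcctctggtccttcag
Panx1, chr9:15045429-15045728, minus strand: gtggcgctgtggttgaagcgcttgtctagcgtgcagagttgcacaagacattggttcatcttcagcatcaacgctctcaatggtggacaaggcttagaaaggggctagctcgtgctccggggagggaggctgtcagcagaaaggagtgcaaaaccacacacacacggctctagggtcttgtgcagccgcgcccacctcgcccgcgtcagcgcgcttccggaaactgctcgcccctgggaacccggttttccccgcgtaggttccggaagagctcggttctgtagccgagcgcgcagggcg

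The GC content of these windows was 47.7% for Gja1, 57.3% for Gjb6, 70.0% for Gjb2, 50.7% for Gjc3 and 61.3% for Panx1, beside a median of 52.7% over 32851 promoters. The window of Gja1 held the letters TGAGTCA from position -19 relative to the RefSeq start of the window. This is a match to the AP-1 motif, which 7.81% of all promoters held. The start of Gja1 in GENCODE M21, 56377330, lies downstream of that RefSeq start, so the motif is further from it. The window of Gjb2 held 2 matches to GGGCGG, at positions -211 and -126, the latter on the opposite strand, and 35.7% of promoters held at least 1. No match to the TATA motif TATAAA, held by 13.6% of promoters, or to the SOX motif ACAAAG, held by 18.7%, was found in the windows printed. The E-box CANNTG, which can overlap the other motifs, was present in 72.3% of all promoters and in each printed window except that of Panx1. These letters describe the windows only, and Gja1 and Gjb6 shared none of the motifs searched apart from the E-box.

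Gja1 encodes the most abundant gap junction protein of astrocytes and lies at chr10:56377330-56402513 (GENCODE M21 on GRCm38, plus strand). Its level was 3873, 3619, 4157 and 2887 CPM in stem cell libraries 1 to 4. In astrocytes it was 1052, 2395, 1815 and 2502 CPM in libraries a to d, and in progenitors 1413, 1021, 993 and 757 CPM. Every stem cell library was above every library of the other cell types, whereas astrocytes and progenitors overlapped through astrocyte library a, the lowest of its group, and progenitor library a. The means were 3634 ± 544 (SD, n = 4) CPM in stem cells, 1941 ± 665 in astrocytes and 1046 ± 272 in progenitors. The fitted log2 fold change of progenitors over stem cells was -1.83 (SE 0.20), a 3.47-fold higher mean in stem cells, and it stayed between -1.999 and -1.68 in 13 alternative fits. Between astrocytes and progenitors it was 0.90 (SE 0.30), which was not past the adjusted threshold of 0.05 unless all 12 libraries shared a fit or astrocyte library a was left out, when it was 1.11 (SE 0.23). Among astrocytes that library had the highest mature neuron markers, at 5252 CPM against 636 to 1913 CPM, with 4052 CPM from Camk2a. It also had the highest oligodendrocyte markers, at 3205 CPM against 337 to 1373 CPM, and immature neuron markers, at 299 CPM against at most 21.9 CPM. Oligodendrocyte precursor markers were highest there too, at 320 CPM against 43.1 to 199 CPM, with 270 CPM from Pdgfra. Microglial, mural and stem cell markers were instead highest in library d, at 248, 200 and 566 CPM, and endothelial markers in library c, at 16.6 CPM. The astrocyte markers of library a summed to 17929 CPM, within the range of the others. The part of other cells in its Gja1 level was not tested. Between astrocytes and stem cells the log2 fold change of Gja1 was -0.91 (SE 0.26), and this was not past the threshold although the groups did not overlap.

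Gjb6, the other main astrocyte connexin, lies at chr14:57123303-57133611 on the minus strand and followed the same order of cell types. Stem cell libraries 1 to 4 had 1089, 1201, 1230 and 777 CPM. Astrocyte libraries a to d had 544, 772, 762 and 523 CPM, and progenitor libraries 328, 327, 304 and 391 CPM. The groups did not overlap in any pair, although stem cell library 4 was only just above astrocyte library b. Means were 1074 ± 207 (SD, n = 4) CPM in stem cells, 650 ± 135 in astrocytes and 337 ± 37.2 in progenitors, the last the narrowest relative spread of any member in any group at 11.02% of the mean. The log2 fold change of progenitors over stem cells was -1.71 (SE 0.18) and that of astrocytes over stem cells -0.73 (SE 0.26), of which the former was past the threshold and the latter was not. Astrocytes were above progenitors by 0.95 (SE 0.26) on the log2 scale. That difference was past the threshold in the reported fit but not in 8 of 13 alternatives, namely without astrocyte library b or c, without any single progenitor library, without a count filter and with at least 10 counts required in every library, in which it ranged from 0.58 to 1.03. Without TMM factors the astrocyte range of 432 to 676 CPM overlapped the progenitor range of 364 to 468 CPM.

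Since both genes code for astrocyte connexins, their ratio was read within each library, where library scaling cancels. Per kilobase of exon, Gja1 was 0.786 to 0.969 times Gjb6 in stem cells, 0.504 to 1.25 times in astrocytes and 0.505 to 1.12 times in progenitors. The 4 stem cell libraries thus lay within a narrow band that the other groups straddled. The level per kilobase of Gja1 depends on the exon length used, since the union of its exons is 10257 bp and its longest transcript 3889 bp. With the latter, its astrocyte mean rose from 189 to 499 CPM per kb and stood above the 309 CPM per kb of Gjb6, so the order of these genes is not fixed by the data. In log2(CPM + 1) over the 12 libraries, the genes most like Gja1 were Prdx6 (Pearson r = 0.98), Abhd3 (0.97) and Atp1b2 (0.97), and those most like Gjb6 were S1pr1 (0.96), Timp4 (0.93) and Adhfe1 (0.93), among 16119 genes. These coefficients mix differences between cell types with those between libraries and are descriptive.

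**Figure D1:**
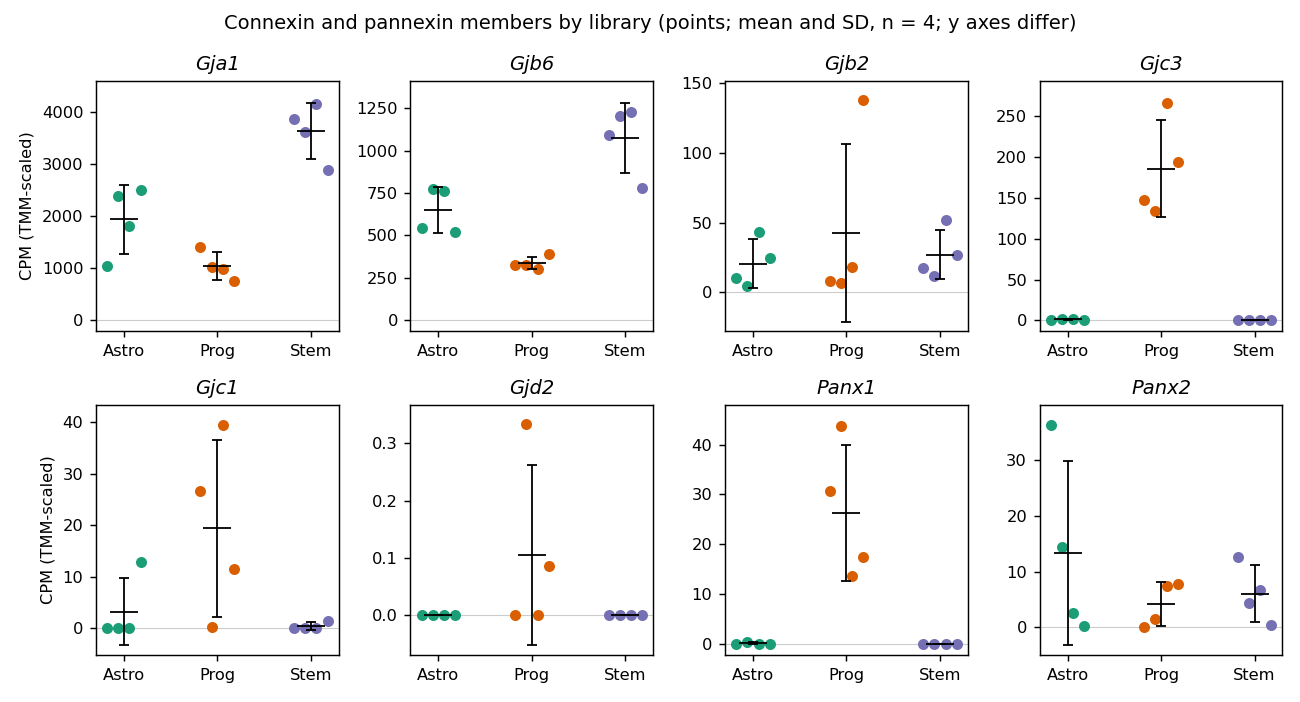
TMM-scaled CPM (y axis, linear, a separate scale per gene) of the 8 members in each library (points, a to d or 1 to 4 from left to right) of astrocytes, progenitors and stem cells (x axis), with the mean and SD over 4 libraries (bars). Stem cell libraries are highest for Gja1 and Gjb6, progenitor libraries stand alone for Gjc3 and Panx1, and 1 progenitor library at 138 CPM sets the Gjb2 mean.

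Gjb2 encodes a connexin found in the brain mainly in the meninges and in some astrocytes, and lies at chr14:57098600-57104702, on the same strand as Gjb6. It was much lower than its neighbour and did not follow its pattern. Progenitor libraries a to d had 7.61, 6.43, 18.3 and 138 CPM, so library d stood apart from the other 3, with 1604 of the 1990 counts of the group. Astrocyte libraries had 10.0, 4.38, 43.5 and 24.3 CPM and stem cell libraries 17.6, 11.3, 51.9 and 26.9 CPM, with all 3 groups overlapping. Astrocytes over progenitors gave a log2 fold change of -1.04 (SE 1.19) which became 0.93 (SE 1.21) without progenitor library d, and progenitors over stem cells went from 0.62 (SE 0.96) to -1.34 (SE 0.72). Astrocytes over stem cells gave -0.39 (SE 1.04), which turned to 0.13 (SE 1.23) without stem cell library 3. Its direction was thus set by single libraries in each comparison. Per kilobase, Gjb6 exceeded Gjb2 in every library, by 2.55 times in progenitor library d and by 14.96 to 159 times in the others. The genes most like Gjb2 over the 12 libraries were Ifi27 (Pearson r = 0.83), Tmprss7 (0.81) and Gm42819 (0.81).

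The genes that flank this pair on chromosome 14 were read from a list set by position. Gja3, a lens connexin, had 0 counts in all 12 libraries. Zmym2, which codes for a zinc finger protein, was at 31.5 to 156 CPM in astrocytes, 43.9 to 80.0 CPM in progenitors and 51.9 to 130 CPM in stem cells. Cryl1 was at 0 to 74.7, 23.5 to 60.0 and 0 to 27.0 CPM in the same order, and Ift88, a component of the transport machinery of cilia, at 0 to 38.8, 6.265 to 19.96 and 0.912 to 15.2 CPM. None of these 3 was past the threshold in any comparison by edgeR or DESeq2, and none had an unadjusted p under 0.05. The smallest adjusted p (edgeR) was 0.40, for Cryl1 between progenitors and stem cells.

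Gjc3 encodes a connexin of oligodendrocytes and other myelinating glia and lies at chr5:137953461-137963098 on the minus strand. Its level was 148, 134, 267 and 195 CPM in progenitor libraries a to d. Astrocyte libraries had 0.639, 1.46, 1.98 and 0.613 CPM, which was 24 counts over 4 libraries, and stem cell libraries had 0.410, 0.130, 0.250 and 0.186 CPM, which was 8 counts. Every progenitor library was thus far above all others. The log2 fold change was -7.28 (SE 0.70) for astrocytes over progenitors and 9.40 (SE 0.45) for progenitors over stem cells. The 4 progenitor libraries were enough to carry this gene past the count filter in both comparisons, although 1 astrocyte library also reached 10 counts.

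The 6 oligodendrocyte precursor markers were, in sum, highest in progenitors, as Gjc3 was. They summed to 1744 to 2725 CPM in progenitors, 43.1 to 320 CPM in astrocytes and 62.6 to 138 CPM in stem cells, where C1ql1 was at 0 in every library. Cspg4 was at 260 to 571 CPM and Sox10 at 114 to 230 CPM in progenitors, with all astrocyte and stem cell libraries under 10 CPM for both. Olig2 overlapped, at 16.7 to 25.5 CPM in progenitors, 17.6 CPM in astrocyte library c and 18.1 CPM in stem cell library 3. Pdgfra was at 396 to 866 CPM in progenitors and at 270 CPM in astrocyte library a. Progenitor library c was the highest for Gjc3, Cspg4 and Pdgfra, whereas library d was the highest for Sox10, Olig1 and C1ql1 and library b for Olig2. Of the 6, 4 were higher in progenitors than in astrocytes and 5 higher than in stem cells (edgeR quasi-likelihood test, Benjamini-Hochberg adjusted). Olig2 was past the threshold in neither comparison, and Pdgfra was not past it against astrocytes. Of all genes tested, 6.18% and 4.95% were higher in progenitors in these comparisons. C1ql1 passed the count filter in both through the progenitor libraries alone, so its direction was fixed. The part of these cells in the level of Gjc3 was not tested. Oligodendrocyte markers were lower in sum in progenitors than in stem cells, but none of the 4 tested was past the threshold between them by edgeR. Mag, a myelin gene of that list, was at 0, 0.585, 4.99 and 3.44 CPM in progenitor libraries a to d, at 0 in every astrocyte library and at 0 in stem cell libraries 2 to 4.

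Panx1, which encodes the ATP-releasing pannexin channel, lies at chr9:15002128-15045478 on the minus strand and was also a gene of the progenitor libraries. It had 30.7, 43.7, 13.6 and 17.4 CPM in progenitor libraries a to d, from 147 to 523 counts. Astrocyte libraries had 0, 2, 0 and 0 counts, and the 4 stem cell libraries had none. Set against a level of 3 counts in each library, the progenitor mean of 26.3 ± 13.7 (SD, n = 4) CPM was at least 44.0-fold higher than in astrocytes and at least 64.6-fold higher than in stem cells. Only the progenitor libraries carried the gene past the count filter, so being tested at all fixed the direction of the difference. The order of libraries was not that of Gjc3, as Panx1 was highest in library b and lowest in library c. Immature neuron markers were highest in sum in progenitors as well. By edgeR 4 of 6 were higher in progenitors than in astrocytes and 5 of 6 higher than in stem cells. Of all genes tested, 6.18% and 4.95% were higher in progenitors there. Through the progenitor libraries alone, Igfbpl1 passed the count filter in both comparisons, Dcx and Eomes against astrocytes and Neurod1 against stem cells. The direction of these was thus fixed. The marker sum was 1286, 1534, 801 and 1467 CPM in progenitor libraries a to d. Library b was the highest and library c the lowest for both, but library d was above library a for the markers and below it for Panx1. Neurod1, Eomes and Sox11 were highest in library b, Dcx and Tubb3 in library d and Igfbpl1 in library a. Whether immature neurons carried Panx1 was not tested.

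Panx2, the pannexin usually found in neurons, lies at chr15:89059734-89073567 on the plus strand and showed no order of cell types. It was at 36.2, 14.4, 2.57 and 0.204 CPM in astrocyte libraries a to d. Progenitor libraries had 0, 1.504, 7.39 and 7.74 CPM and stem cell libraries 12.6, 4.30, 6.76 and 0.371 CPM. Each group held a library under 1 CPM beside others well above it, and all overlapped. In astrocyte libraries a to d, mature neuron markers summed to 5252, 1913, 1848 and 636 CPM and oligodendrocyte markers to 3205, 1373, 618 and 337 CPM, both in the order of Panx2. Of the former, Camk2a was at 4052, 1473, 1498 and 460 CPM. In stem cell libraries 1 to 4 mature neuron markers summed to 238, 456, 352 and 412 CPM, lowest where Panx2 was highest, and in progenitors they were lowest, at 175 CPM, in library c. The part of other cells in the level of Panx2 was not tested. The log2 fold changes were 1.65 (SE 1.70) for astrocytes over progenitors, -0.56 (SE 1.40) for progenitors over stem cells and 1.15 (SE 1.51) for astrocytes over stem cells. The latter 2 turned to 0.086 (SE 1.58) without stem cell library 1 and to -0.092 (SE 1.57) without astrocyte library a.

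Gjc1 encodes a connexin of vascular smooth muscle and pericytes, of embryonic tissue and of some neurons, and lies at chr11:102799579-102819700 on the minus strand. Its level was 26.7, 0.167, 39.4 and 11.4 CPM in progenitor libraries a to d, so library b, with 2 counts, was near 0 and the other 3 were not. In astrocytes it had 0 counts in libraries a to c and 12.9 CPM in library d, and stem cell libraries had 1, 0, 1 and 8 counts. Astrocytes over progenitors gave a log2 fold change of -2.59 (SE 2.11), and without astrocyte library d, when all astrocyte libraries were at 0, progenitors were at least 32.8-fold higher, with neither fit past the threshold. Progenitors against stem cells were not tested, as only 3 of 8 libraries reached 10 counts. With 1 library left out the filter asked for 3 libraries in place of 4, and the gene entered 5 such fits. Progenitors over stem cells then gave 5.95 (SE 1.40) without progenitor library b and 7.74 (SE 1.90) without stem cell library 4, both past the threshold, and 5.17, 5.10 and 5.21 without stem cell library 1, 2 or 3, none past it. With no count filter it was 5.56, also not past it.

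Of the 6 mural cell markers, 4 were high in the same progenitor libraries as Gjc1 and near 0 in library b, namely Vtn, Kcnj8, Rgs5 and Abcc9. Vtn was at 944, 1.25, 1517 and 782 CPM in progenitor libraries a to d, Kcnj8 at 51.5, 0.25, 230 and 17.5 CPM, and Rgs5 at 138, 0.25, 270 and 58.2 CPM. The others did not follow, as Pdgfrb was at 107, 36.8, 82.7 and 49.4 CPM there, with means of 66.5 CPM in astrocytes and 60.5 CPM in stem cells, and Notch3 was highest in astrocyte library a at 79.0 CPM. The 6 markers summed to 1289, 40.1, 2152 and 923 CPM, so library b stood apart from the other 3 for the list as it did for Gjc1. In astrocytes, where Abcc9 was at 0 throughout, the sum was 51.9 to 200.1 CPM with library d the highest, 178 CPM of it from Pdgfrb, and in stem cells it was 64.0 to 103 CPM. By edgeR none of the 4 tested was past the threshold between astrocytes and progenitors, where Abcc9 and Kcnj8 could not be tested. Between progenitors and stem cells 1 of 6, Vtn, was past it, with a log2 fold change of 9.59 (SE 1.64). Of all genes tested, 4.95% were past it and higher in progenitors. The progenitor libraries were enough to carry Vtn past the count filter. In stem cells Vtn was at 0.821 to 1.30 CPM, and progenitor library b lay within that range. The part of mural cells in the level of Gjc1 was not tested.

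**Figure D2:**
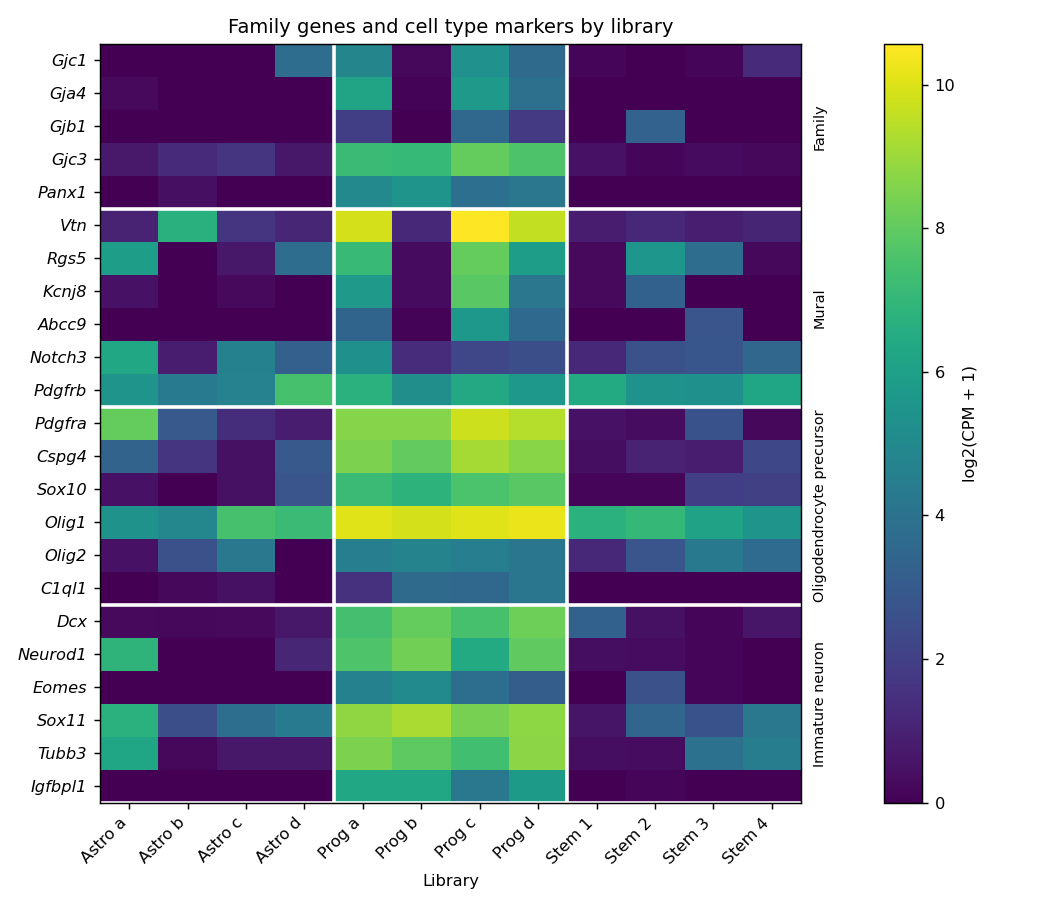
Heat map of log2(CPM + 1) (colour scale) for 5 family genes and for mural, oligodendrocyte precursor and immature neuron markers (rows) in the 12 libraries (columns). Gjc1, Gja4 and the mural genes Vtn, Rgs5, Kcnj8 and Abcc9 are higher in progenitor libraries a, c and d than in b. Gjc3, Panx1, Cspg4, Sox10 and Dcx are in all 4 progenitor libraries above every library of the other cell types.

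Gjd2, the connexin of electrical synapses between neurons, lies at chr2:114009601-114013619 on the minus strand. It had 4 counts in progenitor library b, 1 in library d and 0 in the other 10, which left it at or near the limit of detection in every cell type. Of its exonic bases, 2.60% overlap the antisense gene A530058N18Rik, and since reads were counted without strand those bases could not be assigned to either. No other member overlaps another gene's exons, and no stretch of 100 bases in any member's transcripts occurs in another gene, so close relatives could not have exchanged whole reads of that length.

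Among the 15 remaining connexin and pannexin genes, only Gja4, Gja5 and Gjb1 reached 10 counts in at least 2 libraries of a group. Gja4, the connexin of endothelium and mural cells, was at 72.1, 0.084, 49.4 and 14.02 CPM in progenitor libraries a to d, with 1 count in astrocytes and 0 in stem cells. It was thus low in library b, as Gjc1 was, and too few libraries reached the count filter for a test. Gja5, an arterial connexin, was at 2.12 to 7.14 CPM in progenitors, 1.04 to 7.76 CPM in stem cells and 0 to 0.817 CPM in astrocytes. For astrocytes over progenitors its log2 fold change was -3.35 (SE 1.09), which was not past the threshold by edgeR. DESeq2 placed it past the threshold, as it did 2431 of 13848 genes. The groups did not overlap, and 15.2% of all genes tested were likewise apart and higher in progenitors. Gja5 passed the count filter through the progenitor libraries alone, so being tested at all fixed its direction. Gjb1, a connexin of oligodendrocytes and Schwann cells, was at 2.88, 0, 10.5 and 2.49 CPM in progenitors and at 8.99 CPM in stem cell library 2, with 0 in the remaining stem cell libraries and in all astrocyte libraries. Between progenitors and stem cells it gave 0.80 (SE 1.99, adjusted p = 0.88 by edgeR).

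Summed over all 23 genes per kilobase, the family stood at 771 ± 131 (SD, n = 4) CPM per kb in stem cells, 446 ± 89.1 in astrocytes and 321 ± 39.8 in progenitors. These lengths are unions of exons. With the longest transcript of each gene the totals were 1460 ± 236, 822 ± 194 and 529 ± 65.4, and Gja1 took the larger share, at 61.5% to 66.0% in stem cells against 32.8% to 37.7% for Gjb6. By union length, Gja1 and Gjb6 made up nearly all of it in stem cells, with Gjb6 at 49.7% to 55.2% and Gja1 at 43.4% to 48.2%. Astrocytes were alike in that respect but more variable, with Gjb6 at 43.2% to 63.3% and Gja1 at 32.0% to 53.9%. In progenitors Gjb6 took 34.7% to 46.3% and Gja1 21.7% to 39.0%, and Gjc3 took 9.62% to 18.7%, beside at most 0.094% in any library of the other groups. Genes of the family with at least 10 counts numbered 7 to 11 in progenitors, 4 to 5 in astrocytes and 4 to 5 in stem cells, and progenitor libraries were also the most deeply sequenced as a group. By mean level per kilobase of exon union the order in all 3 cell types began with Gjb6 and Gja1, whose ranges overlapped. The next was Gjc3 in progenitors, with a range that overlapped that of Gjb2, and Gjb2 in astrocytes and stem cells, in each case apart from Gja1.

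**Figure D3:**
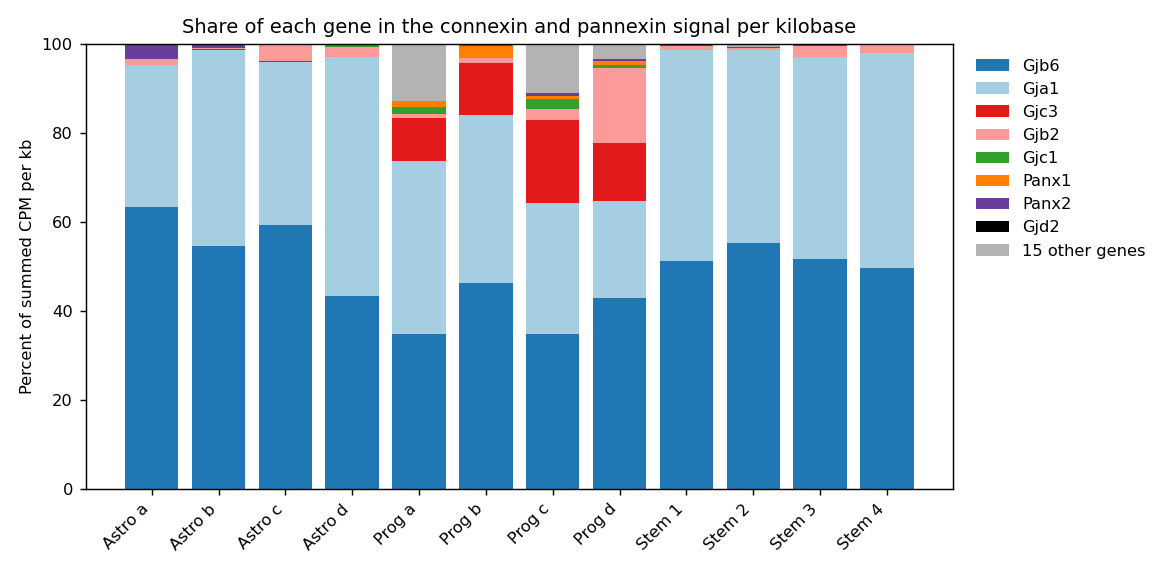
Stacked bars of the percent of summed CPM per kilobase (y axis) that each of the 8 members and the 15 other genes together contribute in each library (x axis). Gjb6 and Gja1 fill almost the whole bar in astrocytes and stem cells, while Gjc3 takes 9.62% to 18.7% in progenitors and the other genes reach 12.8% in progenitor library a.

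Set beside the whole table, 3 of the 8 members were past the adjusted threshold of 0.05 between astrocytes and progenitors (edgeR, 7 members tested), where 8.63% of 14806 genes were. These were Gjb6, higher in astrocytes as were 2.45% of genes, and Gjc3 and Panx1, higher in progenitors as were 6.18%. The same 3 had groups that did not overlap, beside 21.0% of all genes tested, of which 5.84% were higher in astrocytes and 15.2% in progenitors. Between progenitors and stem cells 4 members were past it (6 tested), with Gja1 and Gjb6 higher in stem cells as were 3.66% of genes and Gjc3 and Panx1 higher in progenitors as were 4.95%, together 8.60% of 15427 genes. Groups did not overlap for the same 4, beside 19.3% of genes, 7.50% higher in stem cells and 11.8% in progenitors. Between astrocytes and stem cells no member was past the threshold by edgeR or DESeq2 (4 tested, 2 at an unadjusted p under 0.05), where edgeR placed 0.0468% of 12831 genes past it. Gja1 and Gjb6 did not overlap there, beside 9.97% of genes, 6.28% higher in stem cells and 3.69% in astrocytes. Since the list was made with these contrasts known, the member counts describe the list, and the comparisons share libraries with one another.

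**Figure D4:**
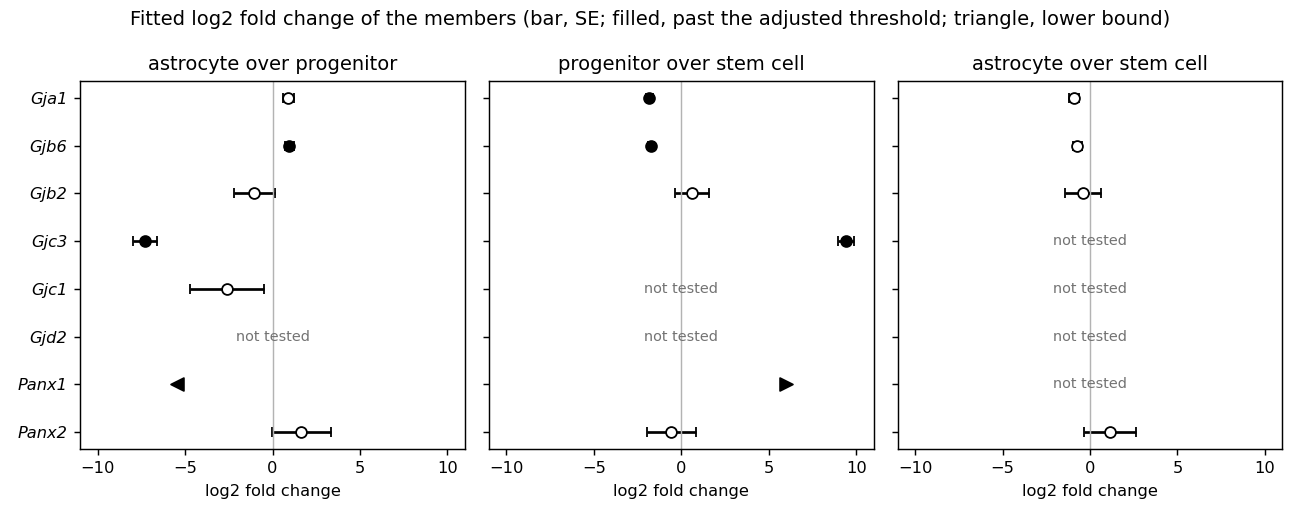
Fitted log2 fold change (x axis) of each member (rows) in the 3 comparisons (panels), with its SE as a bar, filled where past the adjusted threshold. Triangles mark the lower bound of Panx1 against a group at or under 3 counts per library, and all Panx1 differences shown were past the threshold. Gja1 and Gjb6 lie on the stem cell side in the middle panel, and Gjc3 and Panx1 on the progenitor side.

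Genes whose products bind, traffic or modify connexins were read from a list of 14, of which 13 were tested in each comparison. Cav1, the caveolar scaffold protein, was lower in astrocytes than in progenitors by edgeR, with 0, 8.77, 0.395 and 0.408 CPM against 144, 139, 305 and 147 CPM and a log2 fold change of -6.24 (SE 1.39, adjusted p = 0.020). It was the only one of the 13 past the threshold there, beside 8.63% of 14806 genes, and it was lost without progenitor library c. Between progenitors and stem cells 2 of 13 were past it, beside 8.60% of 15427 genes. With 13 genes tested, neither count sets the list apart from all genes. Dbn1, which codes for drebrin, an actin-binding protein, was at 227 to 335 CPM in progenitors and 6.50 to 79.7 CPM in stem cells, a log2 fold change of 2.51 (SE 0.56, adjusted p = 0.021 by edgeR). Tjp1, the tight junction scaffold that binds the Gja1 product, was at 58.5 to 81.1 CPM in progenitors and 91.0 to 245 CPM in stem cells, a log2 fold change of -1.22 (SE 0.30, adjusted p = 0.033 by edgeR). The call on Dbn1 was lost without progenitor library a or d or stem cell library 2, and that on Tjp1 in 6 of 8 fits with 1 library left out, all but those without stem cell library 2 or 4, and both were lost when all 12 libraries shared a fit. Between astrocytes and stem cells 0 of 13 were past it by edgeR, 6 had an unadjusted p under 0.05 and DESeq2 called 4, beside 1226 of 12831 genes at such a p and 635 of 12116 called by DESeq2. The median log2 fold change of the list was -0.53, 0.02 and -0.11 for astrocytes over progenitors, progenitors over stem cells and astrocytes over stem cells, beside 0.03, 0.04 and 0.14 over all genes tested.

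A list of 15 genes of ATP signalling and other large-pore channels was read in the same way. Nt5e, the ectoenzyme that makes adenosine from AMP, was at 9.19, 16.9, 11.4 and 5.16 CPM in progenitors and at 0 in all 8 other libraries. Progenitors were at least 17.8-fold higher than astrocytes and at least 26.1-fold higher than stem cells. Both calls were of a gene that passed the count filter through the progenitor libraries alone, and the former was lost without that filter. Nt5e thus shared with Panx1 a distribution confined to the progenitor libraries, apart from 2 counts of Panx1 in an astrocyte library. Lrrc8b, a subunit of the volume-regulated anion channel, was at 34.7, 7.18, 2.77 and 14.7 CPM in progenitors and at no more than 1 count per library in astrocytes, at least 24.8-fold lower there. It too passed the filter only through progenitors, and its call was lost without progenitor library d, without a count filter and with all 12 libraries in a fit. Entpd2, an ectoenzyme that hydrolyses ATP, was at 360 to 561 CPM in stem cells and 65.9 to 205 CPM in progenitors, with a log2 fold change of -2.09 (SE 0.36, adjusted p = 0.0068 by edgeR) for progenitors over stem cells, lost only when all 12 libraries shared a fit. In all, 2 of 10 tested were past the threshold between astrocytes and progenitors and 2 of 12 between progenitors and stem cells. Over all genes tested the shares were 8.63% and 8.60%. DESeq2 called 3 and 5 of the list, beside 2431 of 13848 and 2394 of 15283 genes. Between astrocytes and stem cells 0 of 8 were past it by edgeR or DESeq2. None of these had an unadjusted p under 0.05, beside 1226 of 12831 genes. The median log2 fold change of the list was -0.17, 0.15 and -1.03 in the order above, beside 0.03, 0.04 and 0.14 over all genes tested.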

How the data were processed

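RNA of 50 sorted cells per library was amplified (SMARTer v4) and sequenced from Nextera XT libraries. The authors trimmed reads with AdapterRemoval, removed those from rRNA, mtDNA and PhiX, aligned them with HISAT2 2.0.6 to GRCm38.p4 and deposited raw counts per gene (featureCounts, without strand, GENCODE M14). Amplified reads carry no molecular identifiers. Here, gene symbols and union exon lengths came from GENCODE M21 by gene ID (50376 of 50600 rows matched). A gene entered a comparison when 4 or more of its 8 libraries held 10 or more counts, or 3 or more of 7 with a library left out, and was tested with edgeR 4.0.16 (R 4.3.3; TMM, quasi-likelihood, Benjamini-Hochberg over all genes, threshold 0.05), a procedure tested on simulated data. DESeq2 1.42.0 and other settings were alternatives. No pair of libraries agreed within sampling noise. The members and lists were chosen with earlier results of these data known. The members, all remaining family genes with at least 10 counts in 2 libraries of a group, the list genes past the threshold, the neighbours of Gjb2 and Gjb6, the 3 most similar genes and the markers are named, with marker lists of astrocytes, immature and mature neurons, stem cells, oligodendrocytes and their precursors, mural and endothelial cells and microglia.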

Additional observations from a re-analysis of the deposited data

Results flagged for a closer look

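Of 35 group values examined for a single library far from the other 3, 7 stood out by Dixon's criterion, and chance gives about 1 in 20 for normally distributed values. Where 3 libraries are at 0, as for Gjc1 in astrocytes and Gjb1 in stem cells, any other value meets the criterion. Among the members, Gjb2 was at 138 CPM in progenitor library d, against 6.43 to 18.3 CPM in the others. Gjc1 was at 12.9 CPM in astrocyte library d, against 0 in the others, and at 1.49 CPM in stem cell library 4, against at most 0.125 CPM. Gjb1 was at 8.99 CPM in stem cell library 2 and at 0 in the others. Among the neighbours of Gjb2 and Gjb6, Zmym2 was at 129.8 CPM in stem cell library 3, against at most 59.6 CPM. Cryl1 was at 74.7 CPM in astrocyte library b, against at most 6.74 CPM, and Ift88 was at 38.8 CPM in astrocyte library d, against at most 1.98 CPM.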

How the results depend on the processing

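No paired analysis was possible because the astrocyte and progenitor columns carry no replicate number. Without TMM factors all genes shift by -0.47 (log2, astrocytes over progenitors), 0.28 (progenitors over stem cells) and -0.18 (astrocytes over stem cells). Of 77 member fold changes under alternatives that kept all libraries, 74 kept direction and call. In the order astrocytes over progenitors, progenitors over stem cells and astrocytes over stem cells, the genes past the threshold numbered 1278, 1327 and 6, and DESeq2 gave 2431, 2394 and 635. Without a count filter the first was 529 and the last 16, with at least 10 counts in each library they were 287 and 12, and with all 12 libraries in a fit the second was 445 and the last 343. Requiring 10 counts in each library left 3 members tested and 0 and 2 past the threshold in the first and second comparison in place of 3 and 4. For the partner list, 1, 2 and 0 became 3, 4 and 4 with DESeq2, 3, 0 and 1 with all libraries in a fit and 0 and 4 (first, second) with 10 counts in each, and the second was 1 without a filter. For ATP and channel genes, 2 and 2 became 1 and 1 with all libraries in a fit, the first 1 with 10 counts in each and 0 without a filter, and the second 5 with DESeq2. Among the 15 other family genes, 0 became 1 for the first comparison with DESeq2 and without a filter, and 1 for the second without a filter. Apart from the smaller set tested under stricter filters, the cause was not tested. With 1 library left out and, with it, the filter eased to 3 libraries with 10 counts, all genes past the threshold ranged from 719 to 1871, from 830 to 1383 and from 0 to 8, the members from 2 to 4, from 4 to 5 and at 0, the partners from 0 to 4, from 0 to 3 and at 0, the ATP and channel genes from 1 to 3, from 2 to 3 and at 0, and the other family genes from 0 to 2, from 0 to 1 and at 0. Directions of 2 members turned. Gjb2 ranged from -1.73 to 0.93 (astrocytes over progenitors) and from -1.34 to 1.15 (progenitors over stem cells), turning without progenitor library d, and from -1.08 to 0.13 (astrocytes over stem cells), turning without stem cell library 3. Panx2 ranged from -0.092 to 1.79 (astrocytes over stem cells), turning without astrocyte library a, and from -1.04 to 0.086 (progenitors over stem cells), turning without stem cell library 1. Depth limits Gjd2, Gjc1 in stem cells and the absence of Panx1 outside progenitors. In astrocytes and stem cells 3 counts are 0.308 to 0.639 CPM, and in progenitors 0.206 to 0.277 CPM.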
